A study of Mus musculus with 14 samples.

Results

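YAP is the transcriptional co-activator that the Hippo kinase cascade keeps out of the nucleus, and 9 genes read as its targets or as marks of fetal-like repair were followed in the mouse colon epithelium: Ly6a, Anxa1, Clu, Ccn1 (Cyr61), Ccn2 (Ctgf), Il33, Msln, Yap1 and Amotl2. The list was fixed by gene name, with earlier results of these data known, and each was found once among the 37680 genes of the count table. The 14 RNA-seq libraries came from adult mice, with 4 WT and 4 Smad4 KO libraries on water and 3 WT and 3 Smad4 KO libraries after 3 d of 2.5% DSS, a sulfated polysaccharide given in the drinking water that injures the colonic mucosa. In the Smad4 KO mice, a tamoxifen-inducible Cre under the villin promoter (Villin-CreERT2) deletes a floxed Smad4 in the intestinal epithelium. WT mice are labelled only as wildtype. The study's methods name controls of the same cross, without saying which alleles the WT libraries carried or whether those mice received tamoxifen. The epithelium was shaken off the whole colon with EDTA, so each library is a bulk mixture of colonic epithelial cells with whatever else came along. In such a mixture fewer cells of a type and less RNA per cell cannot be told apart.

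When Hippo kinases are inactive, YAP enters the nucleus and works through the TEAD DNA-binding factors, and Ccn1, Ccn2 and Amotl2 are textbook targets of that pair. Amotl2 also encodes a junctional protein that binds YAP and holds it back. After injury the intestinal epithelium can take on a fetal-like state, in which YAP is known to act and Ly6a (Sca-1), Anxa1 and Clu are used as markers. Il33 encodes an alarmin of the interleukin-1 family, and Msln encodes mesothelin, a surface protein known above all from mesothelial cells.

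The TEAD hexamer CATTCC was searched for in the 250 bases before the start of the members with a RefSeq promoter window (build GRCm38.p6). Windows were found for 5 of the 9 genes, 6 windows in all, since Il33 has 2 starts. Ly6a, Clu, Ccn2 and Msln had no window in the source used and were not searched. All 6 windows held CATTCC or its reverse complement GGAATG exactly once, while 12.6% of all 32851 windows of that length held it at least once. The windows of Ccn1 and Amotl2, both known TEAD targets, and of Anxa1, whose transcript differed most evenly between the genotypes, are shown on the strand of the gene with the hexamer in capitals.
Ccn1 (chr3:145649986-145650235, minus strand): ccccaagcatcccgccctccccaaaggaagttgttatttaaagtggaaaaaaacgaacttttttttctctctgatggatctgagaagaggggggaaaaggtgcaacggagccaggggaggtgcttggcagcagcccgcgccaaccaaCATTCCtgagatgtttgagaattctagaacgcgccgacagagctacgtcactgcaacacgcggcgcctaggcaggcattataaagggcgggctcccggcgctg
Amotl2 (chr9:102717554-102717803, plus strand): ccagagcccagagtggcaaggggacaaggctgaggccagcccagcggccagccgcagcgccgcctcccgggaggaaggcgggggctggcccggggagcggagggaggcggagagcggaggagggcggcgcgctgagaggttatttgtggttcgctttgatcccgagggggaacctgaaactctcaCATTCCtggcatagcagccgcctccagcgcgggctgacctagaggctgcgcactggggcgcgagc
Anxa1 (chr19:20390672-20390921, minus strand): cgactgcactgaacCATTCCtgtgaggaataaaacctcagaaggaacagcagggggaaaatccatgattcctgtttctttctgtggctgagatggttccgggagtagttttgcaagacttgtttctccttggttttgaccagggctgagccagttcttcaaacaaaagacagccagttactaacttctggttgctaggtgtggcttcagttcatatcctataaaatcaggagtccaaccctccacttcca
The hexamer began 103 bases before the start in Ccn1, 65 in Amotl2 and 236 in Anxa1. It began 141 bases before the start in Yap1, and 131 and 107 bases before the 2 starts of Il33. Neither the AP-1 motif TGANTCA (held by 6.75% of all windows) nor the palindromic SMAD motif GTCTAGAC (0.167%) occurred in the 6 windows on either strand, so the hexamers overlap neither of them. A match of letters is a description of these windows and no measure of binding.

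Total counts per library ran from 12882827 to 26087231, and mitochondrial genes held 4.05% to 32.8% of them, with WT water replicates 3 (30.6%) and 4 (32.8%) and Smad4 KO water replicate 4 (21.4%) above 20%. Levels are given as CPM, the count of a gene relative to its library total, with that total scaled by TMM. The epithelial marker Epcam had 1218 to 2250 CPM, so the labelled tissue was present. Squamous and endothelial transcripts were scarce: the summed level was 0.417 to 8.44 CPM for 8 squamous genes, of which Krt5 and Trp63 had no count in any library, and 3.40 to 10.6 CPM for 7 endothelial genes, of which Emcn, Cldn5 and Tie1 had none. Summed levels of other marker lists were low too, 0 to 9.99 CPM for 5 mesothelial and 6.67 to 42.3 CPM for 10 fibroblast genes. They were 11.9 to 22.3 CPM for 6 smooth muscle and 17.8 to 48.5 CPM for 13 immune genes. Which cells these transcripts came from was not tested. Smad4 had 118 to 182 CPM in the 7 WT libraries and at most 46.7 CPM in 6 of the 7 Smad4 KO libraries, but 158 CPM in Smad4 KO water replicate 1, a library that keeps its label here. For Smad4, Anxa1 and the count and median of the Hippo list on water, values are given with and without it. Other values of Smad4 KO on water, those of single Hippo genes among them, include it unless stated. After DSS Smad4 was lower in Smad4 KO (log2 fold change -2.05, SE 0.09, edgeR adjusted p = 1.5e-05). On water the log2 fold change was -0.95 (SE 0.42, edgeR adjusted p = 0.23), and without that library it was -1.75 (edgeR adjusted p = 0.0082, with 0.0082 to 0.47 over all alternatives).

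The 9 genes spanned the whole range of the transcriptome. Per kilobase of exon, Ly6a had a mean level of 989 CPM over the 14 libraries, above 99.6% of the 15106 tested genes with a length. Anxa1 followed with a level of 56.7 CPM per kilobase (92.5th percentile), and Yap1 with 7.32 (57.5th percentile). Below them Clu (1.32), Ccn1 (1.30) and Amotl2 (1.03 CPM per kilobase) lay close together, with SDs over the libraries of 0.422, 0.390 and 0.285. Msln (0.550), Il33 (0.341) and Ccn2 (0.00527 CPM per kilobase) came last. In all 14 libraries Ly6a exceeded Anxa1, Anxa1 exceeded Yap1 and Yap1 exceeded Clu. Clu exceeded Ccn1 in 8 of 14, Ccn1 exceeded Amotl2 in 10 of 14 and Msln exceeded Il33 in 5 of 14, so these neighbours did not differ beyond their spread.

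**Figure D1:**
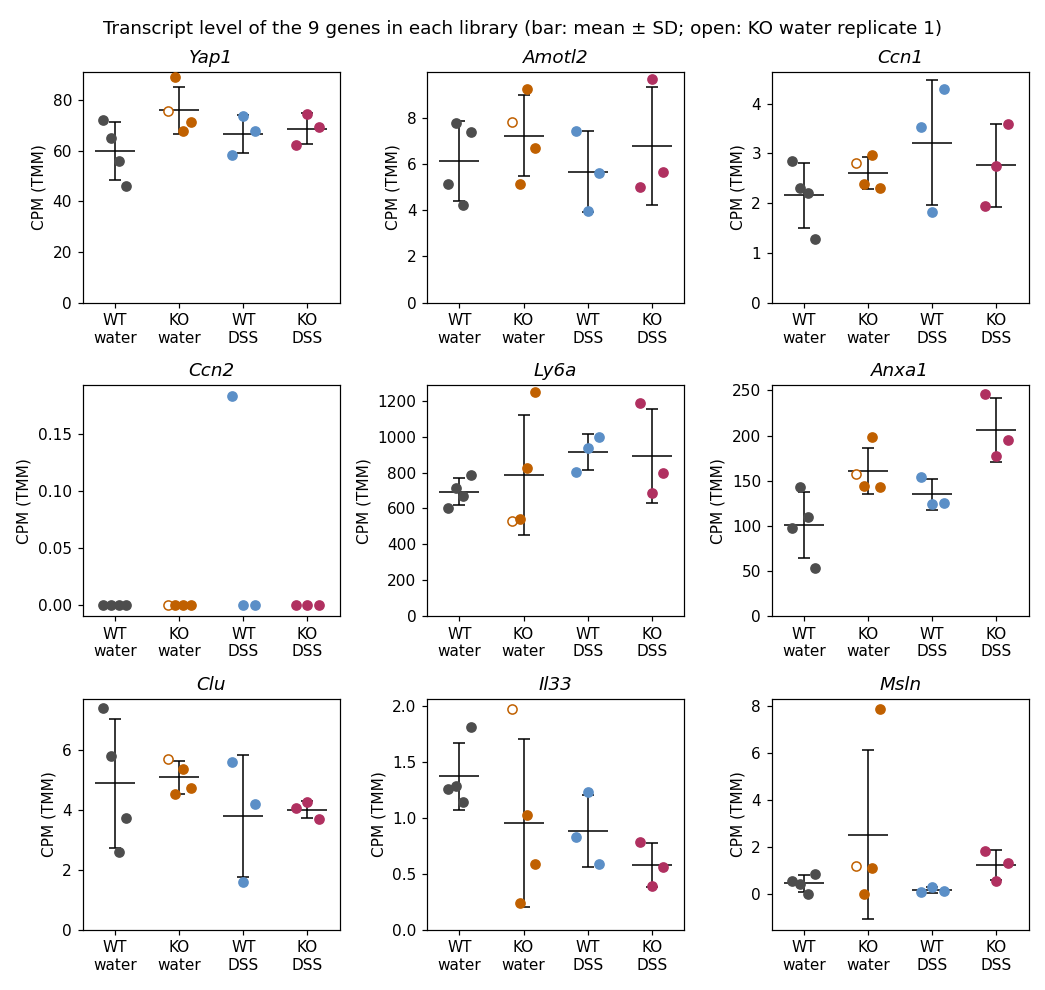
Each panel plots 1 gene, with the CPM (TMM-scaled) on a linear y axis and the 4 groups on the x axis. Points are libraries, bars are the mean ± SD of the group (omitted for Ccn2, which has counts in 1 library), and the open point is Smad4 KO water replicate 1, as labelled. The Smad4 KO points of Anxa1 sit above the WT points on water and after DSS, and 1 Smad4 KO water library stands alone at 7.85 CPM for Msln.

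Each difference was tested within the 2 groups compared by the quasi-likelihood F-test of edgeR, with Benjamini-Hochberg adjustment over 15127 genes and a threshold of 0.05. Of the 9 genes, 8 passed the filter on low counts, and Ccn2 did not. None of the 8 was called by edgeR in any comparison. After DSS, 0 of 8 genes were called between Smad4 KO and WT, where 0.747% of all genes were (113 genes), with 2 of the 8 at an unadjusted p below 0.05, against 15.4% of all genes. DESeq2 called 2 of the 8, Anxa1 and Msln, against 3.21% of all genes. On water 0 of 8 were called, against 0.00661% of all genes, and 1 had an unadjusted p below 0.05, against 20.4%. For DSS against water 0 of 8 were called in WT, with 1 at an unadjusted p below 0.05, and 0 of 8 in Smad4 KO, with 0 at an unadjusted p below 0.05, where 0.0% and 0.00661% of all genes were called and 24.2% and 6.37% had an unadjusted p below 0.05. DESeq2 called 0 of the 8 in each of those comparisons, against 4.27% of all genes on water, 10.8% for DSS in WT and 0.469% for DSS in Smad4 KO. The interaction test of whether the DSS response differed between genotypes called 0 of 8 in edgeR, against 0.00661% of all genes, and 0 in DESeq2, against 0.0529%, and 0 of the 8 had an unadjusted p below 0.05 in edgeR, against 7.5% of all genes. The comparisons share libraries and are not independent of each other, and the p-values measure the spread between libraries that are labelled as replicates.

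Yap1, the co-activator itself (chr9:7931999-8004596, minus strand, mm9), was steadily expressed. On water it had 72.3, 65.0, 55.9 and 46.1 CPM in WT and 75.5, 88.9, 67.8 and 71.3 CPM in Smad4 KO. After DSS it had 58.3, 73.5 and 67.8 CPM in WT and 62.2, 74.6 and 69.4 CPM in Smad4 KO. The groups overlapped throughout, and the 2 lowest values were those of WT water replicates 3 and 4, the libraries with 30.6% and 32.8% mitochondrial counts. After DSS the log2 fold change of Smad4 KO against WT was 0.05 (SE 0.11, edgeR adjusted p = 0.87). On water it was 0.34 (SE 0.17, edgeR adjusted p = 0.29), and 0.18 (SE 0.18) in the 5 libraries under 20% mitochondrial counts.

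Amotl2 (chr9:102619002-102635748, plus strand) was low and varied within groups as much as between them. WT libraries on water had 5.14, 7.76, 4.23 and 7.37 CPM and Smad4 KO libraries 7.83, 5.12, 9.25 and 6.68 CPM. After DSS WT libraries had 7.44, 3.97 and 5.60 CPM and Smad4 KO libraries 5.02, 9.69 and 5.63 CPM. All 4 groups overlapped, and no comparison gave a log2 fold change beyond 0.26 (SE 0.30), which was that of Smad4 KO against WT after DSS (edgeR adjusted p = 0.72).

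Ccn1 (chr3:145309935-145312949, minus strand), which encodes a secreted matricellular protein and is a fast-responding YAP target, had 12 to 102 counts per library. On water it had 2.85, 2.30, 2.20 and 1.28 CPM in WT and 2.81, 2.38, 2.96 and 2.30 CPM in Smad4 KO. After DSS it had 3.54, 1.83 and 4.29 CPM in WT and 1.93, 2.76 and 3.60 CPM in Smad4 KO. The 2 highest values, 3.60 and 4.29 CPM, were in 1 Smad4 KO and 1 WT library after DSS, and the lowest, 1.28 CPM, was in WT water replicate 4, so that the groups overlapped in every comparison. The largest difference was that of DSS against water in WT, with a log2 fold change of 0.55 (SE 0.39, edgeR adjusted p = 0.41).

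Ccn2 (chr10:24315248-24318489, plus strand), the closest relative of Ccn1 among the 9 genes and another matricellular YAP target, was all but absent. It had 4 counts in WT DSS replicate 1 (0.184 CPM) and 0 counts in the other 13 libraries. It did not pass the filter on low counts, and without that filter edgeR called it in no comparison (adjusted p = 0.42 to 1.0). A count of 0 allows up to 3 counts per library, or 0.111 to 0.321 CPM depending on depth, which covers counting error only. No difference was detectable at this depth. In GENCODE M1 the lincRNA Gm15270 on the other strand covers 22.9% of the exonic bases of Ccn2, and it had 1 count over all libraries. Whether the counting used strand is not given in the sources used here.

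Ly6a (chr15:74825308-74828064, minus strand), a GPI-anchored surface protein known as the stem cell antigen Sca-1, was by far the most abundant of the 9 transcripts. WT libraries on water had 605, 713, 667 and 787 CPM and Smad4 KO libraries 533, 541, 828 and 1247 CPM. After DSS WT libraries had 803, 938 and 1001 CPM and Smad4 KO libraries 1188, 689 and 798 CPM. In WT the 3 DSS libraries lay above the 4 water libraries, a pattern that 12.8% of all tested genes showed, with a log2 fold change of 0.40 (SE 0.15, edgeR adjusted p = 0.15, with 0.053 to 0.42 over the alternatives, lowest in DESeq2). In Smad4 KO the water libraries alone spread from 533 to 1247 CPM and covered the DSS libraries, with a log2 fold change of DSS against water of 0.18 (SE 0.32, edgeR adjusted p = 0.94). The 1247 CPM was that of replicate 4 (21.4% mitochondrial counts), and without that library the log2 fold change was 0.50. The difference between the WT and Smad4 KO responses was -0.22 on the log2 scale (SE 0.38, edgeR adjusted p = 0.88), and -0.48 to 0.084 with 1 library left out. Between Smad4 KO and WT the log2 fold change was -0.03 (SE 0.19) after DSS and 0.18 (SE 0.27) on water, and the groups overlapped in both. Ly6a belongs to a cluster of similar Ly6 genes, and how reads shared among them were counted is not given in the sources used here.

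Anxa1 (chr19:20447918-20465434, minus strand), a phospholipid-binding protein known for resolving inflammation and sealing mucosal wounds, was the member whose libraries separated most evenly by genotype. On water it had 98.1, 143, 109.5 and 53.8 CPM in WT and 157, 145, 198 and 144 CPM in Smad4 KO. After DSS it had 155, 125 and 125 CPM in WT and 246, 178 and 195 CPM in Smad4 KO. In both conditions every library labelled Smad4 KO lay above every WT library, although on water the margin was narrow, 143 against 144 CPM. The 157 CPM on water was that of Smad4 KO replicate 1, the library with Smad4 at the WT level. Without it the groups still did not overlap. Counted with WT, it would lie above the Smad4 KO values of 145 and 144 CPM, and the groups would overlap. Of all tested genes, 10.4% showed that pattern in this direction after DSS and 5.18% on water.

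After DSS the Anxa1 transcript was 1.53 times the WT level (log2 fold change 0.62, SE 0.14, edgeR adjusted p = 0.098). DESeq2 called it (adjusted p = 0.0024), as did edgeR without the filter on low counts (adjusted p = 0.019), while the adjusted p over all alternatives ran up to 0.9994, in the model of all 14 libraries. On water the log2 fold change was 0.67 (SE 0.25, edgeR adjusted p = 0.18, with 0.064 to 0.42 over the alternatives), and 0.69 without the library labelled Smad4 KO replicate 1. WT water replicate 4, with 53.8 CPM the lowest library, also had the highest mitochondrial share (32.8%), and without it the log2 fold change was 0.46 (SE 0.19). In the 5 libraries under 20% mitochondrial counts it was 0.47 (SE 0.22, edgeR adjusted p = 0.25). DSS against water gave log2 fold changes of 0.41 (SE 0.26) in WT, or 0.16 (SE 0.17) in the libraries under 20% mitochondrial counts, and 0.36 (SE 0.17) in Smad4 KO, and their difference was -0.06 (SE 0.34, edgeR adjusted p = 0.97). In the main fits Anxa1 was the only member with a log2 fold change above 0.30 in all 4 comparisons of 2 groups. That limit was not planned beforehand. With 1 library left out, its values for DSS against water fell as low as 0.21 in WT and 0.21 in Smad4 KO.

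Clu (chr14:66587320-66600385, plus strand), a secreted chaperone that marks revival stem cells of the injured intestine, was low and separated the groups in only 1 comparison, that of DSS against water in Smad4 KO. On water it had 7.43, 5.81, 2.60 and 3.74 CPM in WT and 5.72, 4.53, 5.39 and 4.75 CPM in Smad4 KO. After DSS it had 5.60, 1.60 and 4.21 CPM in WT and 4.08, 4.28 and 3.70 CPM in Smad4 KO. The Smad4 KO libraries after DSS all lay below those on water, as for 4.28% of all tested genes, with a log2 fold change of -0.34 (SE 0.25, edgeR adjusted p = 0.85). The WT libraries spread more widely, from 1.60 to 7.43 CPM, and the log2 fold change of DSS against water there was -0.38 (SE 0.46, edgeR adjusted p = 0.65). Between genotypes the log2 fold change was 0.08 (SE 0.38) after DSS and 0.04 (SE 0.34) on water.

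Il33 (chr19:29999604-30035194, plus strand) was near the limit of detection, with 4 to 45 counts per library. On water it had 1.26, 1.29, 1.14 and 1.82 CPM in WT and 1.98, 0.238, 1.03 and 0.588 CPM in Smad4 KO. After DSS it had 0.827, 1.23 and 0.589 CPM in WT and 0.784, 0.394 and 0.558 CPM in Smad4 KO. Both the highest and the lowest value came from Smad4 KO on water, and the highest, 1.98 CPM, was that of the library labelled replicate 1. All 4 log2 fold changes were below 0, from -0.50 (SE 0.64) for Smad4 KO against WT on water to -0.73 (SE 0.72) for DSS against water in Smad4 KO, and none passed the test (edgeR adjusted p = 0.41 to 0.89). With 1 library left out, these 2 values ran from -1.12 to -0.18 and from -1.04 to -0.10.

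Msln (chr17:25885559-25891272, minus strand) had the largest fold difference of the 8 tested members in each comparison of 2 groups, on 0 to 147 counts per library. On water it had 0.555, 0.443, 0 and 0.855 CPM in WT and 1.19, 0, 1.11 and 7.85 CPM in Smad4 KO. After DSS it had 0.0919, 0.320 and 0.126 CPM in WT and 1.83, 0.591 and 1.32 CPM in Smad4 KO. After DSS the 3 Smad4 KO libraries lay above the 3 WT libraries, which had 2 to 7 counts each. Of all tested genes, 10.4% showed that pattern. The log2 fold change was 2.76 (SE 0.61, edgeR adjusted p = 0.089), and DESeq2 called it (adjusted p = 0.0086), as did edgeR without the filter on low counts (adjusted p = 0.017), with 0.9994 in the model of all 14 libraries. On water the groups overlapped, with a log2 fold change of 2.45 (SE 1.19, edgeR adjusted p = 0.27). Smad4 KO water replicate 4 decided that value, and without it the log2 fold change was 0.75 (SE 1.14, edgeR adjusted p = 0.70). DSS against water gave -1.33 (SE 0.95) in WT and -1.03 (SE 1.11) in Smad4 KO, and neither passed the test (edgeR adjusted p = 0.41 and 0.91). Without Smad4 KO water replicate 4 the value in Smad4 KO was 0.67.

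**Figure D2:**
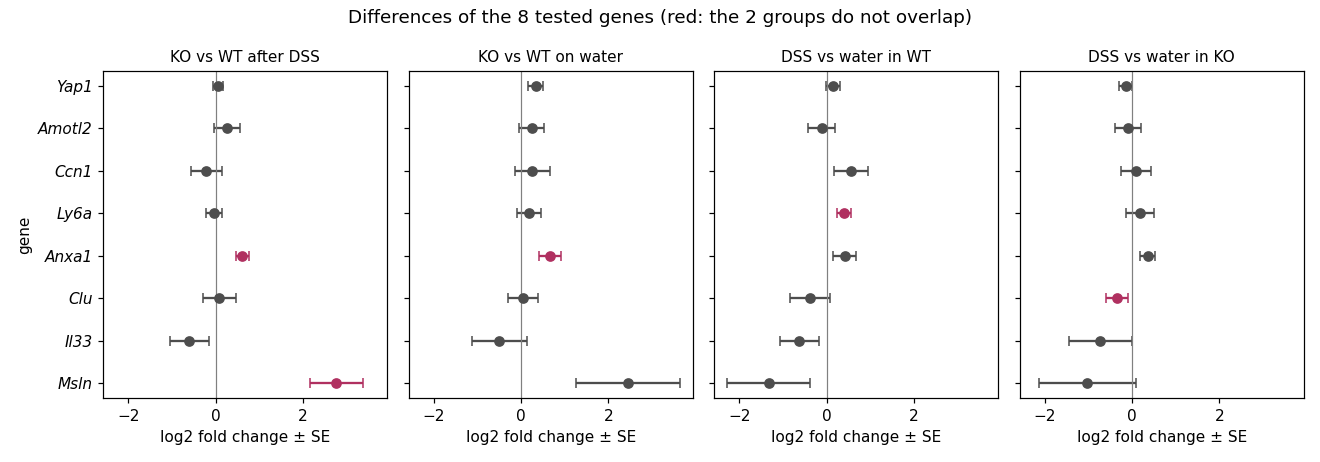
Each panel plots 1 comparison, with the edgeR log2 fold change on the x axis and the 8 tested genes on the y axis. Points are fitted values, bars are ± SE, and red marks genes whose 2 groups do not overlap. Most points lie near 0, Anxa1 lies at 0.62 and 0.67 in the genotype comparisons, and Msln has the widest bars.

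Fibroblast and mesothelial genes were read beside Msln. After DSS the summed level of 5 mesothelial genes (Upk3b, Lrrn4, Wt1, Gpm6a and Muc16) was 1.22 to 3.45 CPM in Smad4 KO and 0 to 1.77 CPM in WT, and 3 of the 4 tested were higher in Smad4 KO in their fitted value, 0 of them called by edgeR or DESeq2, with 2 at an unadjusted p below 0.05, against 15.4% of all genes. The summed level of 10 fibroblast genes was 15.4 to 23.5 CPM in Smad4 KO and 8.54 to 10.7 CPM in WT. Of the 7 fibroblast genes tested, 3 were called higher in Smad4 KO after DSS, the fibrillar collagen genes Col3a1 (log2 fold change 4.14, edgeR adjusted p = 0.0080), Col1a2 (3.13, adjusted p = 0.046) and Col1a1 (2.60, adjusted p = 0.046). The median log2 fold change over those 7 genes was 2.60, beside 0.00283 over all genes tested, of which 0.747% were called in either direction. The paper assigns its higher collagen transcripts to the Smad4 KO epithelium. It reports barely detectable transcripts of the fibroblast gene Pdgfra and concludes that pericryptal fibroblast contamination was lacking. The sums of 6 smooth muscle genes (14.6 to 18.5 against 16.1 to 19.2 CPM) and of the 7 endothelial genes (4.91 to 5.68 against 4.50 to 6.35 CPM) overlapped between Smad4 KO and WT, and edgeR and DESeq2 called none of the 4 and 2 tested, with 2 and 1 at an unadjusted p below 0.05, against 15.4% of all genes.

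On water, Smad4 KO replicate 4 had the highest sum of both lists, 9.99 CPM for the mesothelial and 42.3 CPM for the fibroblast genes, as it had the highest Msln. Smad4 KO water replicate 2, which had no Msln count, had the lowest sums of its group, 0.655 and 11.1 CPM. Some libraries after DSS did not follow that order. WT DSS replicate 2 had the highest Msln of its group but the lowest sums, 0 CPM mesothelial and 8.54 CPM fibroblast. Smad4 KO DSS replicate 2 had the lowest Msln of its group, with a higher mesothelial sum (2.41 CPM) than replicate 3 (1.22 CPM). Over the 14 libraries Pearson's r of log2 Msln was 0.83 with the log2 fibroblast sum and 0.64 with the mesothelial sum, values that share their libraries and rest on few counts. For Anxa1 r was 0.49 with the fibroblast, 0.19 with the mesothelial and 0.62 with the summed immune genes. Epithelial cell type markers also differed in the comparison after DSS. Of 5 colonocyte genes, 3 were called lower in Smad4 KO by edgeR, Car4, Aqp8 and Krt20 (median log2 fold change of the list -0.85), and of 6 goblet cell genes 2 were, Fcgbp and Zg16 (median -0.37), against 0.747% of all genes called in either direction. The part of all these transcripts in the differences of Msln and Anxa1 was not tested. Among immune genes, S100a8 and S100a9, calprotectin subunits of neutrophils that stressed epithelium also makes, were called higher in Smad4 KO after DSS (log2 fold changes 3.21 and 3.06, edgeR adjusted p = 0.010 and 0.043), while the other 10 tested were not. Of the 12 tested, 5 were higher in Smad4 KO in their fitted value, with a median of -0.12. The summed level of 13 immune genes, these 2 included, was 37.0 to 48.5 CPM in Smad4 KO and 25.3 to 38.5 CPM in WT.

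**Figure D3:**
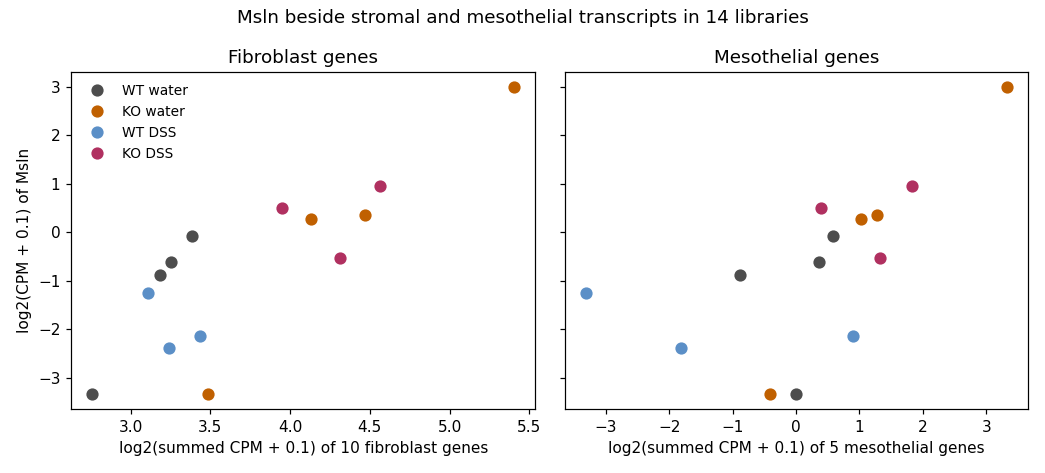
Points are the 14 libraries, coloured by group, with log2(CPM + 0.1) of Msln on the y axis and log2(summed CPM + 0.1) of the 10 fibroblast genes (left) or 5 mesothelial genes (right) on the x axis. The Smad4 KO water library with 7.85 CPM of Msln is at the upper right of both panels, and Smad4 KO libraries after DSS lie to the right of the WT libraries after DSS for the fibroblast genes.

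The rest of the Hippo pathway was read from 20 genes for its kinases, scaffolds, angiomotins and TEAD factors, all of which passed the filter. None was called in any of the 5 comparisons by edgeR, while 1 (genotype after DSS), 6 (genotype on water), 6 (DSS in WT), 0 (DSS in Smad4 KO) and 3 (interaction) had an unadjusted p below 0.05, and DESeq2 called 1, 3, 3, 0 and 0. Of all genes, 15.4%, 20.4%, 24.2%, 6.37% and 7.5% had an unadjusted p below 0.05, in the same order. DESeq2 called 3.21%, 4.27%, 10.8%, 0.469% and 0.0529% of all genes. The most abundant were Mob1a, an adaptor of the LATS kinases, with log2 fold changes of Smad4 KO against WT of 0.08 (SE 0.09) after DSS and 0.46 (SE 0.21) on water, and Nf2, the upstream scaffold Merlin, with -0.12 (SE 0.09) and 0.20 (SE 0.14). After DSS 13 of the 20 were higher in Smad4 KO in their fitted value, with a median log2 fold change of 0.10. On water 17 of 20 were higher, with a median of 0.42 beside -0.0071 over all genes tested, with 16 of 20 and a median of 0.39 in the 5 libraries under 20% mitochondrial counts and 16 of 20 and a median of 0.29 without the library labelled Smad4 KO replicate 1. Scaling by total counts alone, which moved the median of all genes on water to 0.22, gave 18 of 20 and a median of 0.60. For DSS against water 17 of 20 were higher in WT (median 0.25), or 13 of 20 (median 0.17) in the libraries under 20% mitochondrial counts, and 8 of 20 in Smad4 KO (median -0.11).

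Single Hippo genes stood out after their values were seen. Amotl1, a relative of Amotl2 that binds YAP as well, had 8.57 to 10.3 CPM in Smad4 KO and 4.52 to 6.25 CPM in WT after DSS (log2 fold change 0.76, SE 0.18, edgeR adjusted p = 0.11). Of all tested genes, 10.4% were higher in Smad4 KO after DSS without overlap. The kinase gene Lats1, whose product phosphorylates YAP, had 66.9 to 106 CPM in Smad4 KO and 42.0 to 62.9 CPM in WT on water (log2 fold change 0.69, SE 0.20, edgeR adjusted p = 0.16). On water 5.18% of all tested genes showed that pattern. Wwtr1, which encodes the YAP paralog TAZ, did not exceed 0.873 CPM in any library.

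Of 18 other known YAP targets in the list, 14 passed the filter and none was called in any comparison by edgeR. An unadjusted p below 0.05 was found for 2 (genotype after DSS), 5 (genotype on water), 3 (DSS in WT), 1 (DSS in Smad4 KO) and 1 (interaction), and DESeq2 called 1, for DSS in WT. The unadjusted shares over all genes were 15.4%, 20.4%, 24.2%, 6.37% and 7.5% in that order, and DESeq2 called 10.8% for DSS in WT. The most abundant were Dock5, an exchange factor for Rac, with log2 fold changes of Smad4 KO against WT of 0.01 (SE 0.09) after DSS and 0.41 (SE 0.17) on water, and Nt5e, the ectonucleotidase CD73, with -0.31 (SE 0.17) and -0.10 (SE 0.31). The median log2 fold change was 0.04 after DSS and 0.34 on water for genotype, and 0.02 in WT and -0.16 in Smad4 KO for DSS. Ankrd1, one of the genes most often used to read YAP activity, had no count in any library. Ccdc80, named for its value, had the largest fitted difference on water (log2 fold change 4.31, SE 1.39, edgeR adjusted p = 0.16), at no more than 2.14 CPM in any library.

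Of 23 further fetal-like and repair genes, 20 passed the filter and none was called by edgeR in any comparison. An unadjusted p below 0.05 was found for 5 (genotype after DSS), 3 (genotype on water), 6 (DSS in WT), 4 (DSS in Smad4 KO) and 0 (interaction), and DESeq2 called 3, 1, 4, 0 and 0. Over all genes the unadjusted shares were 15.4%, 20.4%, 24.2%, 6.37% and 7.5%. Those of DESeq2 were 3.21%, 4.27%, 10.8%, 0.469% and 0.0529%. The most abundant were S100a6, a calcium-binding protein, with a log2 fold change of Smad4 KO against WT after DSS of 0.03 (SE 0.12), and Ly6e, a relative of Ly6a, with -0.11 (SE 0.11). The median log2 fold change was 0.02 after DSS and 0.23 on water for genotype, the latter 0.080 in the libraries under 20% mitochondrial counts, and 0.11 in WT and -0.06 in Smad4 KO for DSS.

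Some repair genes are named for their values. Krt7, a simple-epithelial keratin, had 283 to 331 CPM in Smad4 KO and 212 to 239 CPM in WT after DSS (log2 fold change 0.46, SE 0.10, edgeR adjusted p = 0.091). Of all tested genes, 10.4% were higher without overlap in that comparison. Anxa8, an annexin like Anxa1, had 53.1 to 72.7 CPM after DSS and 12.5 to 35.4 CPM on water in WT (log2 fold change 1.23, SE 0.29, edgeR adjusted p = 0.088), and 46.2 to 65.7 against 30.7 to 55.5 CPM in Smad4 KO (0.50, SE 0.21, adjusted p = 0.76). For 12.8% of all tested genes the WT libraries after DSS all lay above those on water.

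**Figure D4:**
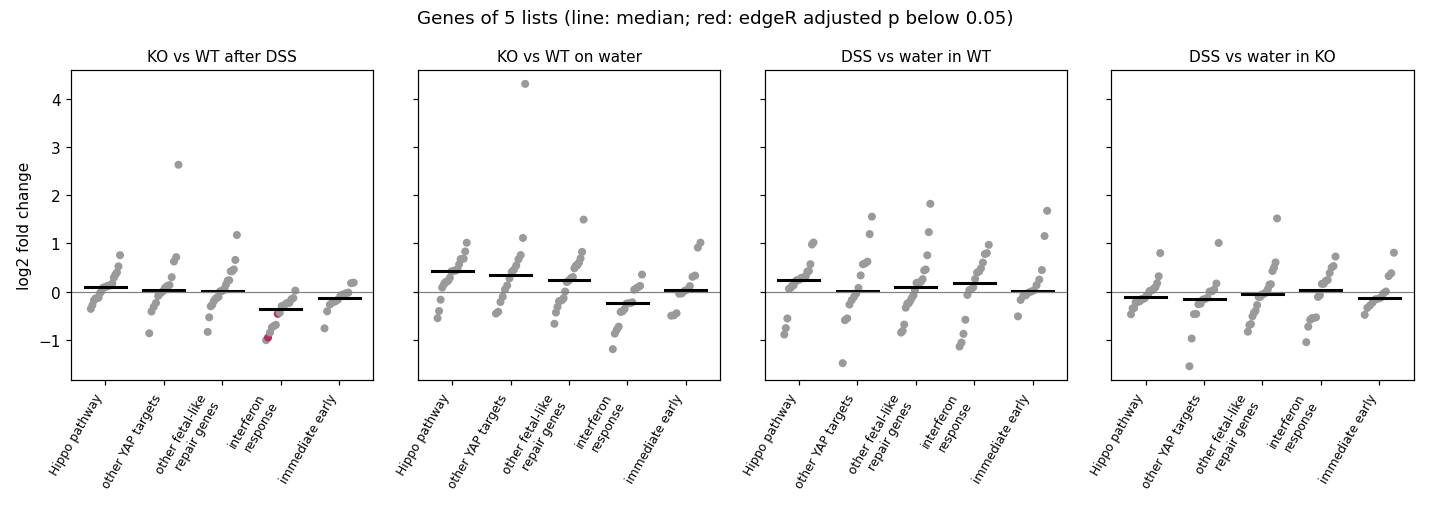
Each panel plots 1 comparison, with the edgeR log2 fold change on the y axis and 5 gene lists on the x axis. Points are genes in order of their value, the line is the median of the list, and red marks an adjusted p below 0.05. The Hippo, YAP target and fetal-like lists hold no red point, and on water the Hippo median is at 0.42.

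Interferon-response genes, of which Ly6a is known to be one, were set beside it. After DSS 15 of the 16 tested were lower in Smad4 KO in their fitted value and 2 were called, Stat2 (log2 fold change -0.46, edgeR adjusted p = 0.0496) and Bst2 (-0.95, adjusted p = 0.046), with a median of -0.37, while DESeq2 called 5 lower and 10 had an unadjusted p below 0.05 in edgeR. Over all genes edgeR called 0.747%, DESeq2 called 3.21% and 15.4% had an unadjusted p below 0.05. Scaled by total counts alone, 0 of the 16 were called. Ly6a, with a log2 fold change of -0.03 (SE 0.19), did not pass the test there. On water none of the 16 was called by edgeR and 1 by DESeq2, with 5 at an unadjusted p below 0.05 (median -0.24). Of all genes on water DESeq2 called 4.27%, and 20.4% had an unadjusted p below 0.05. For DSS against water edgeR called none in either genotype, and the genes went both ways. In their fitted value 11 of 16 were higher in WT (median 0.18) and 8 of 16 in Smad4 KO (median 0.04). At an unadjusted p below 0.05, 5 were higher and 3 lower in WT, and 3 higher and 1 lower in Smad4 KO. In either direction 24.2% (WT) and 6.37% (Smad4 KO) of all genes had such a p. DESeq2 called 3 higher and 2 lower in WT, and 1 lower in Smad4 KO, against 10.8% and 0.469% of all genes. Irf1, an interferon-induced transcription factor, had log2 fold changes of 0.40 (SE 0.14) in WT and 0.50 (SE 0.16) in Smad4 KO. Over the 14 libraries r of the summed interferon genes was 0.55 with Ly6a and -0.66 with Yap1. Of 12 immediate-early genes none was called in any comparison by edgeR, with 1 each for genotype after DSS and on water, 2 for DSS in WT and 0 elsewhere at an unadjusted p below 0.05, and DESeq2 called 1 each for genotype after DSS and DSS in WT. The shares over all genes given above for these comparisons apply here too.

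The genes whose log2 CPM followed each member most closely over the 14 libraries were sought among 11566 genes with a mean of at least 50 counts. For Ly6a they were Ms4a8a (Pearson's r = 0.93), Slc35b1 (0.87) and Mpi (0.87). For Anxa1 they were Ints12 (0.97), Dhx36 (0.94) and Exosc9 (0.94), and for Yap1 Fam53c (0.95), Ehmt1 (0.90) and Vopp1 (0.89). The 3 less abundant members had lower values, with Hsd17b4 (0.85), Pacrgl (0.85) and Las1l (0.85) for Ccn1, Tacc1 (0.79), Gm8730 (0.75) and Tnfaip8l1 (0.75) for Clu, and Gpr56 (0.78), Hsh2d (0.77) and Pik3r4 (0.75) for Amotl2. No known YAP target or fetal-like gene of the lists was among these 18. The values are the highest of many over 14 libraries that share depth and mitochondrial share, and are a description only.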

How the data were processed

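RNA-seq was done on colon epithelium of 14 libraries. Paired-end reads of 150 bp were mapped by the authors with Hisat2 (mm9) and assigned to genes with featureCounts, and the counts they deposited are raw. Every column matched a library label. Of 37680 genes, 14001 had no count in any library. Positions and exon lengths come from GENCODE M1, promoter windows from RefSeq. A gene needed 10 counts or more in 3 or more of the libraries, which left 15127. The tests used edgeR 4.0.16 (R 4.3.3) with TMM on the 2 groups compared, and all 14 libraries for the interaction. SE is the log2 fold change over the root of F. DESeq2 1.42.0 and the closing section's other settings were alternatives. Same-numbered libraries were not treated as pairs (4 libraries a group at most). Their deviations correlated at -0.081 to 0.056, except for replicate 4 on water (0.35). Those 2 libraries share a name prefix and had 32.8% (WT) and 21.4% (Smad4 KO) mitochondrial counts. With replicate as a block, 473 genes were called on water, against 1 without it.

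The members and lists were chosen with earlier results of these data known. Named are the 9 members, Smad4, up to 4 called genes of each list (otherwise the 2 most abundant), and the 3 genes most like each member. Some genes of the lists are not reported here by name. Tables were made with Python 3.11.15.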

Additional observations from a re-analysis of the deposited data

Results flagged for a closer look

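Within the groups of 4 libraries, 2 values stood apart from the rest by Dixon's test, which flags about 1 in 20 groups by chance. The test was run on untransformed CPM of Smad4 and every member but Ccn2 in both water groups. Some flags among so many groups can arise by chance alone. Msln had 7.85 CPM in Smad4 KO water replicate 4, while the other 3 libraries of that group had 0 to 1.19 CPM, and the mesothelial and fibroblast sums were highest in that library too. Smad4 had 158 CPM in the library labelled Smad4 KO water replicate 1, while the other 3 had at most 46.7 CPM.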

How the results depend on the processing

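Anxa1 and Msln kept their direction for Smad4 KO against WT under every alternative, and 0 members were called by edgeR or DESeq2 in any comparison, except after DSS, where DESeq2 and edgeR without the filter on low counts called 2 each. Smad4 after DSS missed the call in 1 of 15 alternatives, the model of all libraries (edgeR adjusted p = 0.21). The member differences that turned direction were each smaller than their SE. For Smad4 KO against WT after DSS, Ly6a was 0.038 with the name prefix as a block and 0.039 with the libraries named D only, and Ccn1 0.047 and 0.049. In the libraries under 20% mitochondrial counts (chosen after seeing the data, as were the models of 13 libraries without Smad4 KO water replicate 1), Ly6a was -0.054 and Clu -0.34 for genotype on water, Yap1 -0.043 for DSS in WT, Msln 0.67 for DSS in Smad4 KO, and the genotype difference in the DSS response was 0.021 for Ly6a and 0.14 for Anxa1. For DSS in WT, Yap1 was -0.058 with the prefix block and -0.056 with D only, and Amotl2 0.12 with total counts only. That genotype difference was -0.099 and -0.54 for Clu, and -0.17 and -0.029 for Amotl2 (total counts only, prefix block), and -1.01 for Msln (prefix block). With the replicate block, Msln was 1.03 for DSS in Smad4 KO and Amotl2 -0.018 for the genotype difference. The cause was not tested.

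Leaving out 1 library turned the direction in ranges of -0.43 to 0.084 (DSS in Smad4 KO), -0.35 to 0.090 (DSS in WT), -0.085 to 0.50 (genotype after DSS) and -0.33 to 0.26 (genotype difference) for Amotl2, -0.28 to 0.16 (genotype difference) for Anxa1, -0.16 to 0.28 (DSS in Smad4 KO) and -0.49 to 0.049 (after DSS) for Ccn1, -0.28 to 0.47 (after DSS), -0.16 to 0.32 (on water) and -0.33 to 0.43 (genotype difference) for Clu, -0.43 to 0.51 (genotype difference) for Il33, -0.083 to 0.50 (DSS in Smad4 KO), -0.29 to 0.12 (after DSS), -0.13 to 0.33 (on water) and -0.48 to 0.084 (genotype difference) for Ly6a, -1.43 to 0.67 (DSS in Smad4 KO) and -0.10 to 1.99 (genotype difference) for Msln, -0.92 to 0.10 (DSS in Smad4 KO) for Smad4, and -0.038 to 0.13 (after DSS) for Yap1.

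The number of all genes called moved far more. For Smad4 KO against WT after DSS it was 113, and 485 (DESeq2), 2 (all libraries in 1 model), 8 (that model without Smad4 KO water replicate 1), 342 (no filter), 57 (replicate block), 42 (prefix block), 42 (D only) and 27 to 96 with 1 library left out, lowest without Smad4 KO replicate 2 and above 54 only without WT replicate 1 or Smad4 KO replicate 1 (56). On water it was 1, and 646 (DESeq2), 1276 (1 model), 37 (no filter), 473 (replicate block), 296 (prefix block), 104 (under 20% mitochondrial counts) and 1 to 1740, with 1740 without Smad4 KO replicate 4 and 13 without replicate 1. For DSS in WT it was 0, and 1641 (DESeq2), 2 (total counts), 356 (no filter), 54 (replicate block), 2 (prefix block), 9 (D only), 1 (under 20% mitochondrial counts) and 0 to 418, with 418 without WT water replicate 2 and 25 without replicate 4. For DSS in Smad4 KO it was 1, and 71 (DESeq2), 10 (1 model), 16 (no filter), 15 (replicate block) and 1 to 3. For the genotype difference it was 1, and 8 (DESeq2), 2 (no filter), 30 (under 20% mitochondrial counts) and 1 to 5. The replicate block called 0 members, and the prefix block could not be fitted for DSS in Smad4 KO, where the groups share no prefix. Ccn2 entered a test only without the filter and was not called, and Il33 and Msln rest on few counts.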
